A study of Mus musculus with 216 samples.

Results

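Isolated H3K9me3 domains are the stretches of this histone mark that stand alone in the genome, with at least 120 kb without any other domain on both sides. They were taken from the authors' deposited table of H3K9me3 domains on chromosomes 1 to 7, 9, 10 and 12 to 19, by the gap to the domain before and to the domain after, with no use of decay class, width or genes. The rule kept 1059 domains of 43039 in the whole table, or of 34389 on these 17 autosomes. The other 33330 domains of the same chromosomes served for comparison, among them 7073 that had a gap of 120 kb or more on 1 side.

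The study followed the loss of H3K9me3 in mouse embryonic stem (ES) cells. All samples came from 1 line, dTKO. Its genotype is Suv39h1fl/fl, Suv39h2-/-, Setdb1fl/fl throughout, so the cells sampled at 0 h carry the same alleles as the later ones. The medium received auxin (100 µg/ml) and dTAG13 (0.5 µM), agents that send tagged proteins to degradation, and cells were taken at 0, 1, 3, 12, 24 and 48 h. ChIP-seq of H3K9me3 and HP1β and an input for each gave 216 sequencing runs, 54 per kind and 9 per time from 3 repeats, with Drosophila chromatin added as a spike-in. The authors placed each H3K9me3 domain in 1 of 4 decay classes, fast, intermediate, slow or residual. The table gives no value per sample or time, so the depth behind a class is unknown and no value below has an error between cultures. Every p-value measures the spread between chromosomes, and intervals of domain shares cover counting error only.

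H3K9me3 is written on histone H3 by the Suv39h enzymes and Setdb1 and is bound by HP1 proteins, and together they form constitutive heterochromatin. In ES cells Setdb1 is brought to DNA largely by KRAB zinc finger proteins through Trim28, and its best-known targets are endogenous retroviruses. Once the enzymes are gone, the mark can be lost by dilution at DNA replication and by demethylation. A retrovirus starts reverse transcription at a primer binding site, a short sequence just behind its first long terminal repeat that pairs with the end of a host tRNA.

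The sequences below come from the isolated domain of each class with the largest smaller gap among the chromosomes shown. They are single examples chosen by gap and need not be typical of their class. Each is the central 300 bases of the domain, + strand of the GRCm38 (mm10) RefSeq genome, with CpG dinucleotides in capitals. The fast window is chr12:90080551-90080850, in an intron of Nrxn3. The intermediate window is chr4:133098601-133098900, outside genes near Wasf2. The residual window is chr10:58206451-58206750, outside coding genes with AW822073 as the nearest start. The slow window is chr7:91282201-91282500, in an intron of Dlg2.
fast: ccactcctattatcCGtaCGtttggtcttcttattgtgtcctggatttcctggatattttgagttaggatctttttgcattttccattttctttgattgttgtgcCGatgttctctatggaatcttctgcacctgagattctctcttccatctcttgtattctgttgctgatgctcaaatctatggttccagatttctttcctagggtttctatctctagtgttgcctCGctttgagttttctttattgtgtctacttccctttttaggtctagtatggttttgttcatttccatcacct
intermediate: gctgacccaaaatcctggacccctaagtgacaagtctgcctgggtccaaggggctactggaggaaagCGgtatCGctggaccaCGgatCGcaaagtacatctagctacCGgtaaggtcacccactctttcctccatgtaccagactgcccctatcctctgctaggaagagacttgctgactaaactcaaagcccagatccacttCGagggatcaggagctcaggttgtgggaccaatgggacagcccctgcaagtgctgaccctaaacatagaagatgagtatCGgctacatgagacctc
residual: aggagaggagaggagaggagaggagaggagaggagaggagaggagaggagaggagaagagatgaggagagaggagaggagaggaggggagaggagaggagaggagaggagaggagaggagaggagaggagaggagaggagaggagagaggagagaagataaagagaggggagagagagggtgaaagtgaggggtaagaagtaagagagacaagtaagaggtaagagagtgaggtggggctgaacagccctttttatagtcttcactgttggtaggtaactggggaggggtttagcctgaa
slow: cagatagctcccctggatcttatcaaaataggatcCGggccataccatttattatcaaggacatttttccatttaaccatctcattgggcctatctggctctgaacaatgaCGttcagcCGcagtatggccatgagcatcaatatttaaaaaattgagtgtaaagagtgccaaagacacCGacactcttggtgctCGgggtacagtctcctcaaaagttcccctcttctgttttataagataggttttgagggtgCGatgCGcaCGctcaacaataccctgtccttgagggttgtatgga

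These windows hold 4 CpG in the fast, 7 in the intermediate, 0 in the residual and 8 in the slow domain. The fast domain of 4.8 kb was made up of copied sequence, with 77.1% of its 31-mers present at least 100 times in the genome and 16.7% present once. The median of fast isolated domains was 66.7% present once. The residual domain of 1.2 kb lay in sequence of which 91.7% of 31-mers were present once, although its centre is a purine-rich simple repeat. It was 63.75% soft-masked as repeats, against a median of 12.5% in residual isolated domains. The slow domain of 5.1 kb had gaps of 414.6 and 460.5 kb, and 58.8% of its 31-mers had at least 100 copies.

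The intermediate domain is the most isolated of all 1059, with 829.5 kb and 540 kb to its neighbours, and it holds a primer binding site for a glutamine tRNA. The next stretch shows that site in capitals with 66 bases on each side, on the + strand at chr4:133096380-133096529. The 18-nt sites for phenylalanine and isoleucine tRNAs are given from the isolated domain with the largest smaller gap for each, at chr5:49191929-49191946 in Kcnip4 and at chr6:21841837-21841854 in Tspan12, both on the + strand. All sites are exact 18-nt matches, and no retroviral element around them was checked. The classes of domains with such sites are compared further on.
Gln window: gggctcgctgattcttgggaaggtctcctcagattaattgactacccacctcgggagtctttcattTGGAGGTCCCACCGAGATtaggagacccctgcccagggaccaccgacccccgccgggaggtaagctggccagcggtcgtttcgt
Phe site: TGGTGCTGAAACCCGGGA
Ile site: TGGTGGCCCGTACGGGGA

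Isolated domains were found on every chromosome tested, from 33 on chromosome 19 to 110 on chromosome 2, with a median of 60. They made up 2.29% to 4.39% of a chromosome's domains. The median gap between neighbouring domains was 30.9 kb, and domains covered 6.21% of the 17 chromosomes. Of the isolated domains, 944 had a smaller gap of 120 to 240 kb and 115 one of 240 kb or more. Just inside the limit, the 207 domains with a smaller gap of 120 kb up to 129.9 kb had a median width of 2.4 kb, 13.5% slow and 2.42% residual, and 58.5% overlapped a gene body. Just outside it, the 224 domains with 110.1 to 119.7 kb had a median width of 2.4 kb, 16.1% slow and 1.34% residual, and 64.3% overlapped a gene body.

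Most isolated domains decayed at the intermediate rate, as did most domains elsewhere. Of the 1059, 794 were intermediate (74.98%, Wilson 95% interval 72.3 to 77.5), against 76.7% of all domains on the 17 autosomes. Slow domains numbered 191 (18.04%, 15.8 to 20.5), against 18.1% of all. Fast domains numbered 34 (3.21%), against 2.93% of all, and residual domains 40 (3.78%, 2.79 to 5.10), against 2.25% of all. As shares of the number of domains, the fast, intermediate and slow classes did not pass the test. Averaged over chromosomes, slow domains were 18.2% ± 4.04 of isolated and 18.3% ± 1.73 of other domains (SD, n = 17 chromosomes), a difference of -0.0727 percentage points ± 4.56 (two-sided permutation test that flips the sign of each chromosome's difference, Benjamini-Hochberg adjusted p = 0.949). The intermediate share differed by -2.08 points ± 5.08 (adjusted permutation p = 0.232) and the fast share by 0.293 points ± 2.54 (adjusted permutation p = 0.843). As shares of covered length, slow domains were 5.24 points higher in isolated domains and intermediate domains differed by -6.49 points, and both passed (adjusted permutation p = 0.0100 each).

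The residual class made up a larger share of isolated domains, 4.02% ± 2.24 against 2.16% ± 0.590 of other domains, a difference of 1.86 points ± 2.50, and it was higher on 13 of 17 chromosomes (adjusted permutation p = 0.0290). This call does not stand on all chromosomes. Without any of chromosomes 3, 6, 7, 13, 15, 16, 17 or 18 the adjusted permutation p lay above 0.05 (highest 0.0623, without chromosome 15), and as a share of covered length the difference was 1.02 points (adjusted p = 0.139). With a gap of 60 kb it was 1.02 points too (adjusted permutation p = 0.0119).

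Isolated domains were shorter than other domains. The median was 2.4 kb for isolated domains, with quartiles of 1.8 and 3.9 kb, against 3.0 kb for other domains, with quartiles of 2.1 and 4.5 kb. The per-chromosome median fell by 0.24 ± 0.14 on the log2 scale, lower on 14 chromosomes and higher on 0 (adjusted permutation p = 0.00016). Of the isolated domains, 133 exceeded 6 kb (12.6%), against 16.2% of all domains. Domains with a gap of 120 kb or more on 1 side exceeded 6 kb in 12.4%, with a median width of 2.7 kb, and those with a smaller gap of 60 to 120 kb in 11.8%. The widest was 27.3 kb, whereas the widest of the other domains reached 121.5 kb.

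Long domains that stood alone were mostly slow. Of the 133 isolated domains over 6 kb, 93 were slow (69.9%, Wilson 95% interval 61.7 to 77.1), against 47.4% of all domains over 6 kb. Another 37 were intermediate (27.8%, against 49.5% of all), 3 were residual (2.26%, against 1.94%) and 0 were fast (which allows a share of up to 2.26% by 3 counts, or 2.81% by the Wilson interval, against 1.1% of all). Averaged over chromosomes the slow share was 73.1% ± 16.7 in isolated and 47.6% ± 4.91 in other long domains. The difference of 25.6 points ± 17.6 had the same direction on 17 of 17 chromosomes (sign-flip permutation p = 6.0e-05). These shares rest on few domains, 4 to 13 long isolated ones per chromosome with a median of 8. On the 13 chromosomes with at least 6 the difference was 21.4 points (permutation p = 0.00031). Isolated domains also exceeded those with a gap of 120 kb or more on 1 side, 73.1% against 58.7% ± 9.30, by 14.4 points ± 14.3 and on 14 of 17 chromosomes (permutation p = 0.0009). The limit of 6 kb and both comparisons, and the minimum of 6, were chosen after the class shares by width had been seen. With a limit of 4.5 kb the difference from other domains was 17.1 points and with 9 kb 30.3 points, and with a gap of 60 kb it was 14.9 points (adjusted permutation p of 6.0e-05, 0.00012 and 0.00075 for these settings). Against domains isolated on 1 side it was 7.22 points with a gap of 60 kb (adjusted permutation p = 0.0220), and 12.5 points on the chromosomes with at least 6 long isolated domains (permutation p = 0.00768).

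Short isolated domains showed no such excess. At up to 1.5 kb, 13 of 259 isolated domains were slow (5.02%, interval 2.96 to 8.397), against 7.42% of other domains. From 1.8 to 3 kb the shares were 10.2% in isolated and 10.4% in other domains, and from 3.3 to 6 kb 16.5% in isolated and 18.3% in other domains. Weighted to equal width, the intermediate share of isolated domains differed by -3.76 points ± 5.14, lower on 14 of 17 chromosomes (adjusted permutation p = 0.0198). The slow share was 1.76 points ± 4.44 higher, which did not pass (adjusted permutation p = 0.163), but passed without chromosome 15 (2.37 points, adjusted p = 0.0345). The residual share was 1.76 points ± 2.54 higher (adjusted permutation p = 0.0257), a call that was lost without chromosome 17 (adjusted p = 0.0510).

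**Figure D1:**
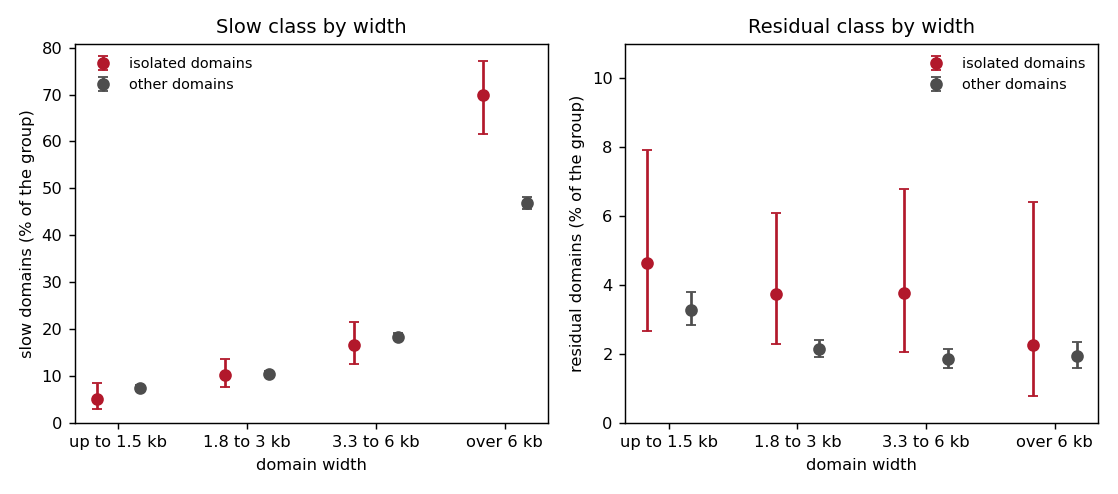
Share of slow domains (left) and of residual domains (right), in percent, among isolated and other domains in 4 width ranges. Bars are Wilson 95% intervals of the counts. Among domains over 6 kb, 69.9% of isolated and 46.9% of other domains were slow; in the 3 ranges up to 6 kb the intervals of the slow shares overlap.

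Among long domains the slow share was higher in each wider bin of gaps up to 240 kb. For domains over 6 kb it was 37.9% with a smaller gap under 5 kb and 46.5% with 5 to 15 kb. It was 49.0% with 15 to 30 kb, 52.6% with 30 to 60 kb and 58.7% with 60 to 120 kb. The isolated domains had 70.3% with 120 to 240 kb and 66.7% with 240 kb or more, where only 15 such domains remain. For domains of all widths the slow share lay between 15.7% and 19.1% in these bins. The residual share had its lowest values in the middle, 3.67% under 5 kb, 1.71% at 15 to 30 kb and 3.71% at 120 to 240 kb. These shares are a description without a test. Against domains with a gap of 120 kb or more on 1 side, none of the 4 class shares over all widths passed the test, with differences of 0.188 points for fast, -2.0003 for intermediate, 0.687 for slow and 1.13 for residual (adjusted permutation p of 0.754, 0.355, 0.722 and 0.355).

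**Figure D2:**
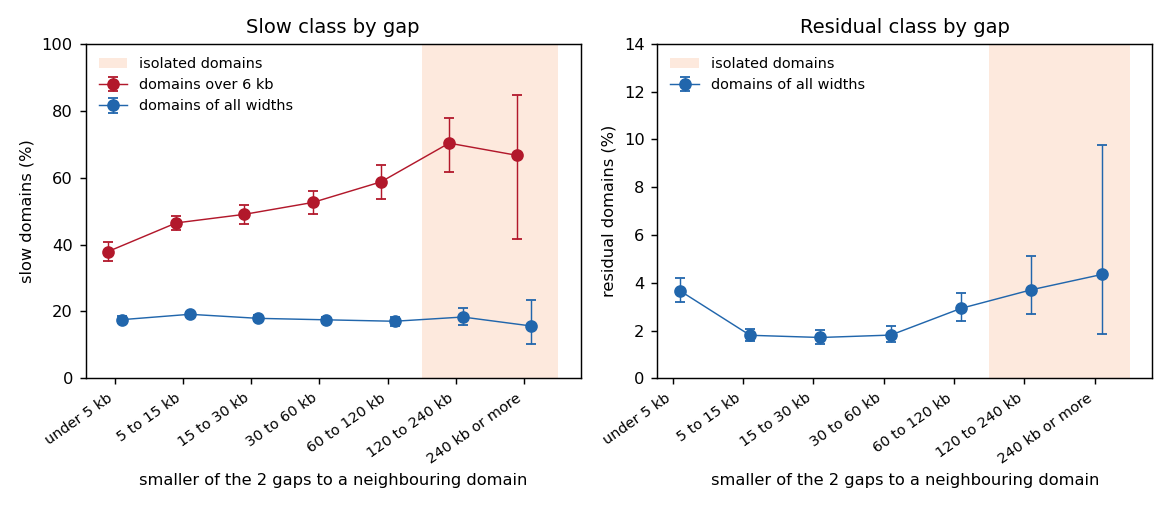
Share of slow domains (left) and residual domains (right), in percent, by the smaller of the 2 gaps to neighbouring domains. Bars are Wilson 95% intervals, and the shaded bins hold the isolated domains. The slow share of domains over 6 kb goes up to 70.3% at 120 to 240 kb, and the residual share is 3.67% under 5 kb and 1.71% at 15 to 30 kb.

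Among the isolated domains, slow ones were long and rich in repeats. Their median width was 6.0 kb, against 2.4 kb for intermediate, 2.25 kb for fast and 2.25 kb for residual isolated domains. Slow exceeded intermediate isolated domains by 1.35 ± 0.56 in log2 width, on 17 of 17 chromosomes (adjusted permutation p = 0.00024). They were soft-masked as repeats over 71.0% ± 8.43 of their length, against 53.9% ± 12.9 in intermediate isolated domains (adjusted permutation p = 0.00048), and unique 31-mers made up 40.4% ± 7.81 against 68.5% ± 15.4 (adjusted permutation p = 0.00024). GC content was 44.8% ± 0.975 against 44.1% ± 1.16 (adjusted permutation p = 0.0354), a call that was lost when at least 10 domains of both classes were required (0.514 points, adjusted p = 0.238). The smaller gap differed between slow and intermediate isolated domains by 0.04 ± 0.16 and the larger by 0.06 ± 0.29 on the log2 scale. Both gaps were in the family behind these adjusted p-values. The gaps chose the domains, so no test of them is reported. Among isolated domains over 6 kb the contrast in medians was smaller. There slow and intermediate ones were 72.7% and 63.5% soft-masked, with 36.6% and 44.9% unique 31-mers. Slow domains elsewhere also exceeded intermediate ones in median width, 4.8 against 2.7 kb, and had fewer unique 31-mers, 38.1% against 50.6%. These medians were not tested.

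Long isolated domains were often slow whether or not their sequence had many copies. Where at least 50% of the 31-mers had 100 or more copies, 44 of 52 isolated domains over 6 kb were slow (84.6%), against 71.2% of 1324 other domains. Where fewer did, 49 of 81 isolated domains were slow (60.5%), against 39.0% of 4110 others. A read from a repeat can match many places, and a class assigned there may carry signal from elsewhere; the part of this in the shares was not tested. Of the 191 slow isolated domains, 30 had at least 90% unique 31-mers. Among the 30 was the 17.1 kb domain in Clstn2, which codes for a postsynaptic calsyntenin, at chr9:97845301-97862400, with 97.1% unique 31-mers and 14.8% soft-masked sequence.

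Isolated domains had less repeat sequence than other domains. They were soft-masked over 56.9% ± 12.8, against 70.6% ± 3.78 of other domains, lower on 15 of 17 chromosomes (adjusted permutation p = 0.00176). Unique 31-mers made up 61.7% ± 13.6 of isolated and 48.3% ± 4.73 of other domains (adjusted permutation p = 0.00181). GC content was 44.6% ± 0.951 against 42.9% ± 0.273, and this held on 17 of 17 chromosomes (adjusted permutation p = 0.00024). The observed over expected CpG ratio was 0.246 ± 0.0200 against 0.230 ± 0.00648, higher on 12 of 17 (adjusted permutation p = 0.0139), a call that was lost when domains under 5 kb apart were joined first (0.0107, adjusted p = 0.0738). Domains with a gap of 120 kb or more on 1 side lay in between on these measures. Pooled medians for isolated, 1-side and other domains were 57.1%, 61.8% and 71.5% soft-masked. For unique 31-mers they were 61.5%, 58.3% and 47.6%, and for GC content 44.5%, 43.8% and 42.9%. Over 6 kb, isolated domains had a median of 36.9% unique 31-mers, against 38.5% in other long domains. Many-copy 31-mers, present at least 100 times, made up a median of 43.1% of long isolated and 29.6% of other long domains. These differences were not tested.

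The surroundings of isolated domains were richer in GC and poorer in repeats. In the 100 kb to either side, the per-chromosome median GC content was 42.9% ± 1.35 for isolated and 40.5% ± 0.588 for other domains. Soft-masked sequence made up 26.9% ± 1.04 of the flanks of isolated and 37.7% ± 2.71 of those of other domains. The rule leaves no other domain in the flanks of an isolated one and so partly sets both measures, which are given as descriptions without a test. By flanking GC, the slow share of long isolated domains was 73.9% of 23 with flanks under 40% GC, 62.5% of 16 at 40 to 42%, 78.2% of 55 at 42 to 45% and 59.0% of 39 at 45% or more, against 44.3% to 48.0% of other long domains in these bins.

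Most isolated domains lay in genes. A gene body was overlapped by 627 of them (59.2%), against 35.4% of all domains, and a protein-coding gene body by 533 (50.3%), against 23.8%. Domains with a gap of 120 kb or more on 1 side lay in between, at 46.1% and 35.6%. Averaged over chromosomes, coding genes were overlapped by 49.8% ± 5.87 of isolated and 23.2% ± 3.01 of other domains, a difference of 26.7 points ± 6.54 with isolated domains higher on 17 of 17 (adjusted permutation p = 0.00012). Exons of coding transcripts were overlapped by 129 isolated domains (12.2%), against 6.6% of all domains; the difference of 5.41 points ± 4.00 held on 15 of 17 chromosomes (adjusted permutation p = 0.000133) and was 1.51 points when only the domain's midpoint counted (adjusted p = 0.0178). Promoters, within 1 kb of a coding transcript start, were overlapped by 48 (4.53%), against 2.81% of all domains. Of domains with a gap of 120 kb or more on 1 side, 9.23% overlapped exons and 3.83% promoters. The promoter difference of 1.69 points ± 3.33 held on 10 of 17 chromosomes (adjusted permutation p = 0.0456). That call was lost without any of chromosomes 1, 2, 4, 5, 7, 12, 13, 16, 17 or 19 (highest adjusted p = 0.0917, without chromosome 7), while with promoters of 5 kb either side the difference was 3.34 points (adjusted permutation p = 0.0108).

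Coding transcript starts were also nearer. The median distance was 34.8 kb for isolated and 77.9 kb for other domains, a difference of -0.34 ± 0.14 on the log10 scale, lower on 17 of 17 chromosomes (adjusted permutation p = 0.00012). For domains with a gap of 120 kb or more on 1 side the median was 52.9 kb. Within 500 kb of the midpoint lay 7.32 ± 2.61 coding genes for isolated and 5.35 ± 1.97 for other domains (adjusted permutation p = 0.00577). With a gap of 60 kb that difference was 0.265 genes and did not pass (adjusted permutation p = 0.553).

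**Figure D3:**
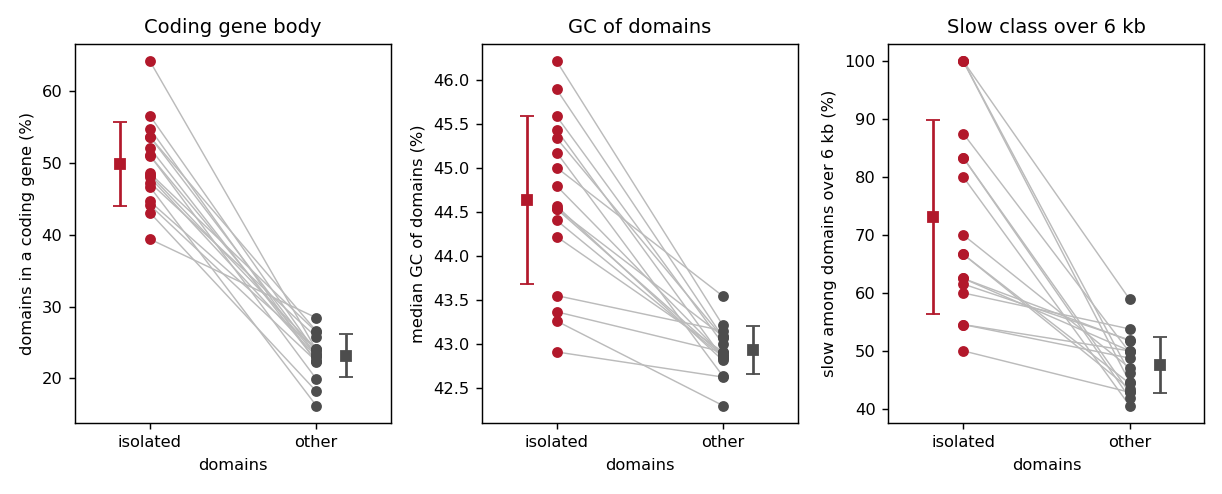
Share of domains in a protein-coding gene (left), median GC content of the domains (middle) and share of slow domains among those over 6 kb (right), all in percent, for isolated and other domains. Each point is 1 of 17 chromosomes, lines join the values of 1 chromosome, and squares with bars are the mean ± SD. Isolated domains are higher on 17 of 17 chromosomes in all 3 panels; the vertical axes do not start at 0.

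Introns held most of the isolated domains in genes. By location, 398 (37.6%) lay in introns of coding genes, against 16.3% of other domains, 423 (39.9%) outside genes, against 64.9%, 98 (9.25%) on exons away from promoters, against 4.61%, and 92 (8.69%) in noncoding genes or pseudogenes, against 11.5%. The residual share went with location in both sets. Slow shares were 11.2% (exons away from promoters) to 19.6% in isolated domains and 16.4% to 20.6% in other domains, where exon domains had 19.9%. Residual domains were 6 of 48 isolated promoter domains (12.5%) and 11 of 98 isolated exon domains (11.2%), against 14.8% and 8.01% of the other domains there. In introns 9 of 398 isolated domains were residual (2.26%), against 2.36% of others, and outside genes 8 of 423 (1.89%), against 1.03%. Promoter and exon domains were also the most unique, with medians of 96.3% and 94.4% unique 31-mers in isolated domains, against 88.9% and 89.6% in others.

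**Figure D4:**
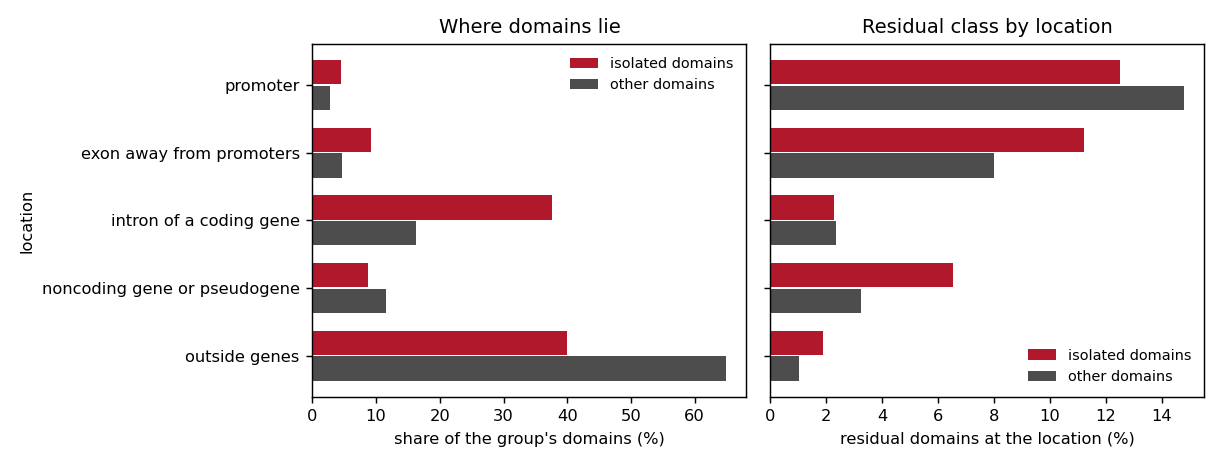
Share of domains at each location, in percent of the group (left), and share of residual domains among those at the location (right), for isolated domains above other domains. Isolated domains lie in introns of coding genes in 37.6%, against 16.3% of other domains, and residual domains are 12.5% of isolated and 14.8% of other promoter domains.

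Residual isolated domains were unique, GC-rich and close to genes. The median of the 40 was 97.5% unique 31-mers, 12.5% soft-masked sequence and 50.6% GC, against 94.4%, 16.3% and 48.1% in residual domains elsewhere. A gene body was overlapped by 32 of them (80%), against 66.8% of other residual domains. Their median distance to a coding start was 12.6 kb, against 11.1 kb. These values were not tested. The longest was an 11.7 kb domain in Mapkap1, which codes for a subunit of the mTORC2 kinase complex, at chr2:34565101-34576800. The next covered 10.5 kb at chr14:25445701-25456200, in the noncoding gene Zmiz1os1 and 3.02 kb from a start of Zmiz1, and a domain of 5.7 kb lay in Atoh8, a basic helix-loop-helix factor, at chr6:72228001-72233700.

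Some residual isolated domains lay on promoters or exons, in genes with varied roles. Of the 40, 6 (15%) overlapped a promoter and 15 (37.5%) an exon, against 18.5% and 29.6% of other residual domains. Another 9 lay in introns of coding genes, 6 in noncoding genes or pseudogenes and 8 outside genes. In Ccdc177 a domain of 2.4 kb lay entirely on exon sequence at chr12:80754901-80757300 and covered 36.1% of the gene. At Sema6c, which codes for a transmembrane semaphorin, 1842 bases of a 3.3 kb domain were exon or promoter, at chr3:95170201-95173500 with 61.7% GC. Lrg1, a secreted leucine-rich glycoprotein gene, had 1701 such bases in a 1.8 kb domain at its promoter (chr17:56121301-56123100). The calcium-regulated transcription factor gene Nfatc1 had 2236 in a 6.3 kb domain, and a 1.8 kb domain on the zinc finger gene Zfp521 was exon throughout. Chosen after their values were seen, the nicotinic receptor subunit gene Chrnb2 had 441 exon bases in a 0.9 kb domain and the heat shock gene Hspa1b 1500 in a 1.5 kb domain. Only 33.3% of the Hspa1b domain's 31-mers were unique, so its reads may be shared with a near-identical copy, whereas the Chrnb2 domain was unique throughout.

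The 34 fast isolated domains were short, with a longest of 6.0 kb at chr4:112199101-112205100 near Skint3. A primer binding site was held by 0 of them, which allows a share of up to 8.82%. Both the 1.44% of other fast domains and the 4.12% of all domains lie below that limit. Fast isolated domains reached a promoter or coding exon at 5 genes. Promoters were overlapped by 3 of the 34 (8.82%) and exons by 3 (8.82%), against 3.70% and 9.14% of other fast domains. Of fast domains with a gap of 120 kb or more on 1 side, 5.61% overlapped promoters and 13.1% exons. At Ermard, 1259 bases of a 1.5 kb domain were promoter or exon (chr17:15052801-15054300), and at Spty2d1, a histone chaperone gene, 490 bases of a 1.2 kb domain were promoter (chr7:47006701-47007900). Mtln, which codes for a mitochondrial micropeptide, had 388 promoter bases in a 3.3 kb domain that was 98.3% soft-masked. Clspn, the gene of the replication checkpoint protein claspin, had 229 exon bases, and Fry had 1. Copy number varied widely among fast isolated domains, with quartiles of 16.7% and 95.5% unique 31-mers around a median of 66.7%. The 5.1 kb fast domain at chr13:78945901-78951000 was 5.88% unique, while the 5.7 kb one at chr2:43731001-43736700, near Arhgap15, was 86.0% unique.

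Exons were overlapped by 17 of 191 slow isolated domains (8.90%), against 6.87% of other slow domains. Slow domains with a gap of 120 kb or more on 1 side overlapped them in 10.3%. Some of the slow isolated domains lay wholly on exon sequence that is unique in the genome. Rag1, which codes for a subunit of the V(D)J recombinase, carried a 3 kb slow domain wholly on exon sequence at chr2:101641501-101644500, 26.7% of the gene, with 100% unique 31-mers. Grin2b, the gene of an NMDA receptor subunit, carried 1 of 2.7 kb at chr6:135731101-135733800, also wholly exon and 100% unique, beside an intermediate one elsewhere in the gene. The widest of these covered Zfp629, a zinc finger gene, over 99.2% of its 8.77 kb; the domain ran for 21.6 kb at chr7:127607101-127628700 with gaps of 137.4 and 494.7 kb. Phf24 and Loxl4, a lysyl oxidase family gene, had slow domains of 7.8 and 4.8 kb at their promoters. In Atp6v1e1, which codes for a subunit of the vacuolar proton pump, slow isolated sequence filled 11.1 kb, or 39.0% of the gene.

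Exons of genes with varied functions were overlapped by 94 of 794 intermediate isolated domains (11.8%), against 5.55% of other intermediate domains. Promoters were overlapped by 30 (3.78%), against 2.26%. Map1a, a microtubule-associated protein gene, carried a 3.6 kb domain wholly on exon sequence at chr2:121299901-121303500 with 55.5% GC and 336 kb to the nearest domain. At Cmah, the gene of an enzyme of sialic acid synthesis, 7230 bases of a 7.5 kb domain were exon (chr13:24469501-24477000), with 25.3% unique 31-mers. Ifrd2 was covered over 60.7% of its 5.74 kb by a 3.6 kb domain across its promoter, and Pank4, of the pantothenate kinase family, over 37.5%. Oxct2a, a ketone body enzyme gene, and 2010300C02Rik had intermediate domains of 3.6 and 5.7 kb at their promoters. Further genes with large shares were Tcf23 (35.9%), Olfr544 (33.4%), Gstz1 (27.3%) and Zfp579 (26.0%), all in intermediate domains.

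Genes with isolated domains were long. Of 18128 protein-coding genes, 500 (2.76%) overlapped an isolated domain, and their median length was 159 kb (quartiles 57.6 and 380 kb). The 3694 genes that overlapped only other domains had a median of 56.1 kb, and all coding genes 18.03 kb. Among the 500, 464 had 1 isolated domain, 29 had 2, 4 had 3 and 3 had 4. The 3 with most were Dlg2, a postsynaptic scaffold gene of 1973 kb with 3 intermediate domains and 1 slow, Nrxn3, a presynaptic neurexin gene of 1612 kb with 3 intermediate and 1 fast, and Opcml, a neural adhesion gene of the immunoglobulin family of 1135 kb with 3 intermediate and 1 slow. Cntnap2 and Lrrc4c, both of neuronal adhesion, had 3 intermediate domains each. Rbfox1, a neuronal splicing factor gene, had 1 fast and 2 intermediate, as did Ntm, another adhesion gene of the same family as Opcml. Classes were therefore mixed within single genes, and domains of 1 gene share its surroundings. A long gene offers more room for a domain that stands alone, and the part of length in these counts was not tested.

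Cadherins and synaptic adhesion genes had the highest shares among the 12 gene lists. Of 115 synaptic and axonal adhesion genes, 58 overlapped a domain of any kind and 26 an isolated one (44.8% of the 58), against 11.9% of all coding genes with a domain. Their 40 isolated domains, some of which share a gene, were 30 intermediate, 4 slow, 4 residual and 2 fast. Of all isolated domains, 74.98% were intermediate, 18.04% slow, 3.78% residual and 3.21% fast. The slow ones in adhesion genes lay in Opcml, Cntnap5b and Lingo2 among others, and residual ones in Sema6c, Dscaml1 and Cntn1. Of 23 cadherins, 7 of the 15 with a domain had an isolated one (46.7%), such as Pcdh15, Pcdh7 and Cdh6 with intermediate and Cdh22 with slow domains. The voltage-gated channel list, which takes in accessory genes such as Kcnip4 and Cacna2d3, had isolated domains in 10 of 63 genes (15.9%). Among them were Kcnma1, Scn1a and Kcnh8 (intermediate) and Kcnip4, Cacna2d3 and Kcnh7 (slow). Ionotropic receptor genes had them in 2 of 17, Grin2b and Chrnb2. The median gene length was 119 kb for adhesion genes and 145 kb for cadherins, against 49.1 kb for channels and 18.03 kb for all coding genes.

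Chemosensory receptor genes, which lie in arrays, had few isolated domains, set against the 11.9% of all coding genes with a domain. Of 85 vomeronasal receptor genes with a domain, 0 had an isolated one, and of 61 olfactory receptor genes 1 did, Olfr544. C2H2 zinc finger genes had them in 10 of 133 (7.52%), including Zfp704, Zfp831 and Zfp579 in the intermediate class, Zfp629 and Zfp407 in the slow and Zfp521 in the residual class. Lineage transcription factor genes had them in 2 of 42 (4.76%), Foxp1 and Sox6, where Sox6, a transcription factor of the SRY family, carried 1 intermediate and 1 residual domain. Imprinted genes had 1 of 19 (Trappc9), germline genes 2 of 28 (Tex21 and Slc25a31) and collagens 2 of 22 (Col22a1 and Col4a3), all intermediate. The H3K9 methylation machinery had a domain at 6 genes and an isolated one at 0. These counts are descriptions, and lists differ in gene length.

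**Figure D5:**
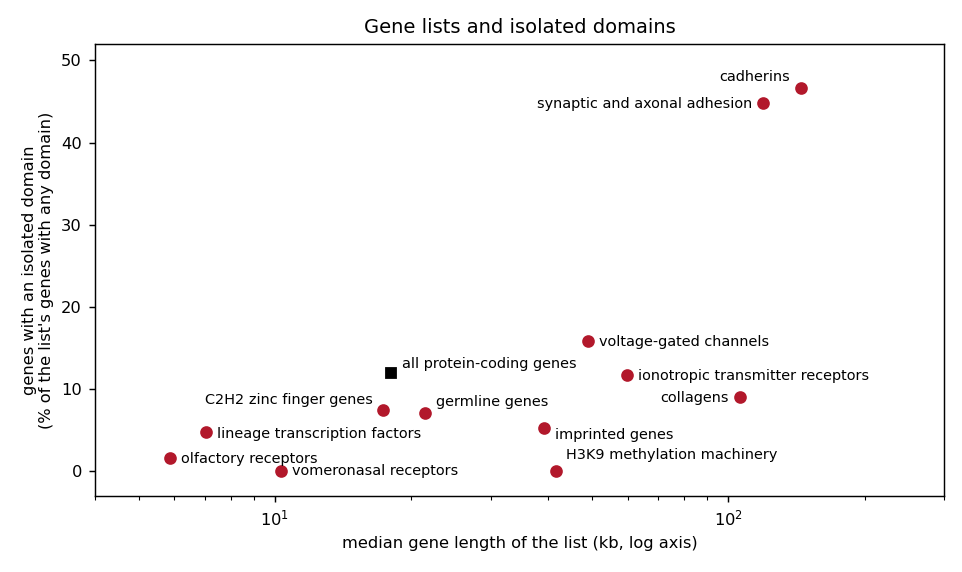
Share of each list's genes that overlap an isolated domain, in percent of the list's genes with any domain, against the median gene length of the list (kb, log axis). Each circle is 1 list and the square is all protein-coding genes. Cadherins (46.7%) and synaptic and axonal adhesion genes (44.8%) lie above all coding genes (11.9%), and collagens, with a median length of 106 kb, lie at 9.09%.

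Sequences that match a retroviral primer binding site were present in 59 isolated domains (5.57%), against 4.12% of all domains. Over chromosomes the share was 5.68% ± 2.86 in isolated and 4.06% ± 0.708 in other domains; the difference of 1.62 points ± 3.18, higher on 10 of 17 chromosomes, did not pass (sign-flip permutation p = 0.0554). It passed without any of chromosomes 1, 7, 9, 12, 13 or 17 (lowest permutation p = 0.0233, without chromosome 13) and was -0.0108 points with a gap of 60 kb (permutation p = 0.976). Among domains over 6 kb only it was 6.28 points (permutation p = 0.106). All 59 were intermediate (41) or slow (18). Of the 1358 other domains with such a site, 920 were intermediate and 411 slow.

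The class of these domains went with the tRNA of the site, and for phenylalanine and isoleucine sites also with width. Sites were grouped by the amino acid of the tRNA, so a group can hold other sequences than the 18-nt site shown. Of the 13 isolated domains with any phenylalanine site 10 were slow (76.9%), against 164 of 314 other domains (52.2%). Where phenylalanine sites were the sole kind, 9 of 10 isolated domains were slow, and the remaining 1, in Cep83, was intermediate. Other domains with phenylalanine sites alone were slow in 148 of 208 (71.2%). Of the 25 isolated domains with any isoleucine site 20 were intermediate (80%), against 429 of 508 other domains (84.4%). Where isoleucine sites were the sole kind, 18 of 21 isolated domains were intermediate, against 339 of 405 other domains (83.7%), and the 3 slow ones lay near Atad2b, near Adgrl2 and in Tspan12. Glutamine sites were in 8 isolated domains, all without another kind, and 7 of these were intermediate, against 89 of 100 other domains with any glutamine site. Isolated domains with phenylalanine sites alone had a median width of 8.7 kb and ranged between 3.9 and 15 kb, whereas those with isoleucine sites alone had a median of 3.6 kb. The slow ones with phenylalanine sites alone were 6.3 to 15 kb wide, and the intermediate one was 3.9 kb. Those with isoleucine sites alone that exceeded 6 kb, at 7.2 and 10.2 kb, were slow, as was one of 3.9 kb. Intermediate domains with a glutamine site reached 18.6 kb. The parts of width and tRNA were not tested. The slow phenylalanine-site domains included the 15 kb domain in Xkr6 (chr14:63638101-63653100) and that of 8.1 kb in Kcnip4. Glycine sites were in 7 isolated domains, 5 intermediate and 2 slow, leucine sites in 6, 5 intermediate and 1 slow, and lysine sites in 3, all intermediate. These counts were not tested.

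The most isolated and the longest domains ranged widely in copy number. The chr4 domain with the glutamine site, 5.7 kb and 28.9 kb from a start of Wasf2, had 1.75% unique 31-mers, but only 1.75% had 100 or more copies. The domain at chr7:126721201-126723900, with gaps of 1021.2 and 515.7 kb near Coro1a, was 77.8% unique and intermediate. Next by gap were intermediate domains at chr14:12251101-12267600 (16.5 kb, 21.8% unique), in Phf21a at chr2:92091601-92094900 (93.9% unique) and in Lingo1 at chr9:56777101-56778900 (94.4% unique). The longest isolated domain was slow, 27.3 kb at chr5:143772601-143799900 in the noncoding gene Gm42503, and held glycine and isoleucine sites. A slow domain of 17.4 kb lay 189 kb from Sox2, the pluripotency factor gene, in the noncoding gene Gm21388 (chr3:34839601-34857000). The longest intermediate ones were 23.7 kb near Ddx11 (chr17:66159901-66183600) and 18.6 kb across Scp2, a sterol carrier protein gene, with a glutamine site (chr4:108141601-108160200).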

How the data were processed

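The deposited file gives a chromosome, start, end and the authors' decay class, a word in place of a number, for each domain. bedtools, deepTools, SAMtools 1.1 and Bowtie2 2.3.4.1 are named without roles, with builds mm10, dm6, mm9 and GRCm38, per the submitters' processing notes. How domains were called, scaled by the spike-in and divided into classes was not given in the sources used here. Signal tracks, reads and HP1β data were not analysed here. Per the labels' protocols, each precipitation used 20 µg of mouse chromatin plus a Drosophila spike-in of 1.5 µg.

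Domains lie on a 300 bp grid; coordinates are printed 1-based. They were set against the GRCm38.p6 RefSeq genome and GENCODE vM21 genes, with an overlap of 1 bp, and 0 ran past a chromosome end. Not counting N bases in gaps would drop 6 isolated domains. GC content, CpG ratio, soft-masked share and genome copies of 31-mers read every 100 bp were computed per domain. Primer binding sites were 122 distinct 18-nt sequences complementary to ends of 403 tRNA genes, leaving out 2 shared by tRNAs of different amino acids. They were matched exactly anywhere in a domain, on either strand, without a check for a long terminal repeat or retroviral element.

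Each test compared per-chromosome shares or medians of isolated and other domains by flipping signs of the differences over chromosomes with at least 10 isolated domains of any width (two-sided permutation test, 100000 resamples, smallest p 1e-05), with Benjamini-Hochberg adjustment within each family of comparisons, 32 in all, and a threshold of 0.05. The sign-flip test was run on simulated class labels, drawn independently over domains of all widths. That simulation did not cover medians, neighbouring domains that resemble each other or long domains alone. Slow and intermediate isolated domains were compared on chromosomes with at least 5 of both. Named genes are up to 3 per list and class by bases in isolated domains, the 10 coding genes of at least 5 kb most covered, up to 5 per class by promoter or exon bases, and the 5 longest domains per class and 5 most isolated domains. Sequences were taken from chromosomes other than 18. The members and lists were chosen with earlier results of these data known. Computation used matplotlib 3.10.9, numba 0.67.0, scipy 1.17.1, pandas 2.3.3, numpy 2.4.6 and Python 3.11.15.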

Additional observations from a re-analysis of the deposited data

How the results depend on the processing

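Alternatives were other gap limits, domains of at least 900 bp, kept first and last domains, gaps without N bases, domains under 5 kb apart joined, other summaries and limits, and each chromosome left out. Of 519 tested values under them, 477 kept direction and side of the threshold, 23 lost a call, 8 gained 1, 10 turned direction without a call, and the slow share by covered length turned and gained 1. With a gap of 60 kb, genes nearby differed by 0.265 and the primer binding site share by -0.0108 points. With first and last domains kept, the slow share differed by 0.0675 points. By covered length, the differences were 5.24 points for slow (adjusted permutation p = 0.0100), -6.49 for intermediate (adjusted p = 0.0100) and 1.02 for residual domains. Joining domains gave a CpG ratio difference of 0.0107, requiring 10 of both classes a GC difference of 0.514 points, and an other side under 30 kb a slow share difference of -0.244 points. Without 1 chromosome, the slow share differed by -0.694 to 0.409 points, the residual share by 1.58 to 2.17, at equal width by 1.46 to 2.05, the slow share at equal width by 1.29 to 2.37, the promoter share by 1.13 to 1.95 and the primer binding site share by 1.34 to 1.93. The cause was not tested. A gap of 240 kb could not be fitted: fewer than 6 chromosomes had at least 10 isolated domains. No paired analysis was possible because the table holds no value per sample. Comparisons of domains over 6 kb, with their settings, and of flanks were chosen after seeing the data. The depth behind each class is unknown, which limits how far classes of single domains can be trusted.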

Other observations

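Isolated domains also differed in places from the opposite extreme, the 3575 domains with both neighbours under 15 kb; none of these values was tested. Of isolated domains over 6 kb, 69.9% were slow, against 38.4% of 851 such crowded domains, and 2.26% were residual, against 4.94%. Over all widths, 3.78% of isolated and 3.86% of crowded domains were residual, so both extremes lay above the 2.25% of all domains. Slow domains were 18.04% of isolated and 19.5% of crowded domains.

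Single chromosomes varied. The slow share of isolated domains ranged between 12.5% and 27.7% over the 17 chromosomes, against 15.9% to 21.4% of other domains, and the residual share between 0% and 8.33%, against 1.22% to 3.22%. Isolated domains on a chromosome numbered 33 to 110, so 1 domain more or less moves such a share by more than it would in the other domains, which numbered 742 to 2984.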
